A study of Mus musculus with 9 samples.

Results

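Integrins, cadherins and laminins carry most of the contacts that a cell makes with its neighbours and with the basement membrane. Their genes were followed here in melanocytes, the pigment cells of skin, sorted from mouse epidermis. Members were taken by gene symbol: integrin α and β chains (Itga, Itgb), cadherins of the numbered Cdh series and laminin α, β and γ chains (Lama, Lamb, Lamc). Of 16299 genes in the deposited table, 31 matched, namely 13 integrin genes (7 α and 6 β), 8 cadherin genes and 10 laminin genes. The rule uses symbols only, but it was chosen with earlier results of these data known.

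An integrin is a pair of one α and one β chain that spans the membrane, binds matrix outside and links to actin or keratin inside. Classical cadherins bind the same cadherin on the next cell, and in epidermis E-cadherin (Cdh1) and P-cadherin (Cdh3) are known to tie melanocytes to keratinocytes. Laminins are secreted trimers of one α, one β and one γ chain that build the basement membrane on which melanocytes and basal keratinocytes sit.

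The series compared 3 groups of 3 RNA sequencing libraries. Control melanocytes came from tail epidermis of Spry1flox/flox mice. Melanocytes called Cre tail and Cre back here came from Spry1flox/flox k14-Cre-ERT2 mice, from tail and from back epidermis, and the series names them as epidermal Spry1 knockouts. All 3 groups therefore carry the floxed Spry1 allele, and no back library without the Cre was analysed here. Keratin 14 is a gene of basal keratinocytes, so the promoter directs this tamoxifen-inducible Cre to the cells around the sorted melanocytes. Whether and when tamoxifen was given, and the age of the mice, are not stated in the labels. Nothing in the labels says that replicates are separate animals, and p-values therefore measure the spread between these libraries, which may be technical.

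Levels are given as normalised counts, that is, whole counts worked back from the deposited log2-scale values and scaled to a common library size. Totals were 66.3 to 67.9 M counts in control, 45.7 to 65.6 M in Cre tail and 47.7 to 57.1 M in Cre back. The first and second back libraries had 4628 and 6127 genes at 0, against 854 to 1739 in the other 7. Spry1 ran from 1074 to 1510 in control, 587 to 3590 in Cre tail and 0 to 2283 in Cre back, and in cells outside the Cre's target it checks no label. The melanocyte markers Tyr, Mlana, Mitf, Sox10 and Kit summed to 517662 to 537741 in control, 576042 to 690040 in Cre tail and 714862 to 841203 in Cre back. They did not move alike. Mlana, the largest part in back, was at 266361 to 321546 in control and 353399 to 633907 in back, and Mitf and Kit were also higher in back. Tyr was at 152094 to 231240 in control and at 132571, 136997 and 260680 in back, and Sox10 overlapped between these groups. Basal keratinocyte markers (Krt5, Krt14, Krt15, Trp63, Col17a1) summed to 37210 to 98947, 11042 to 322416 and 38676 to 188801, and were highest in the third Cre tail and the third Cre back libraries. Langerhans and myeloid markers (5 of 6 analysed, with Cd74) summed to 846 to 2424, 734 to 9727 and 4394 to 20145. Sex-linked transcripts also differed, both between and within groups. The Y-linked Eif2s3y was at 121, 0 and 7 in control, 3948, 4793 and 0 in Cre tail, and 3527, 2974 and 3843 in back. The X-linked Xist was at 4223, 1416 and 3973 in control, 4, 16 and 7358 in Cre tail, and 1414, 1481 and 2645 in back. The third Cre tail library thus differed from the others of its group in both, and all back libraries held both. The part of these differences in the results below was not tested, except where a value is given.

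All 31 members had at least 10 counts in at least 3 libraries, but only 10 were above 0 in every library and 22 in every tail library. Members at 0 numbered 10 and 15 in the first and second back libraries and 7 in the third, against at most 2 in a control library and 6 in a Cre tail library. Per kilobase of annotated exon, cadherins were the most abundant class, at 6919 ± 1182 normalised counts in control, 11292 ± 1510 in Cre tail and 10699 ± 1832 in Cre back (sum over members, mean ± SD, n = 3). Integrin β chains followed, at 3223 ± 373, 6348 ± 1493 and 4529 ± 2085. Integrin α chains stood at 772 ± 200, 1361 ± 276 and 812 ± 617, and laminins at 686 ± 141, 1662 ± 882 and 1272 ± 722. The order of cadherins, then β chains, then the others held in all 9 libraries, while α chains and laminins changed places between libraries.

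Few genes made up each class. Itgb1 held 87.6% of the β chain level in control, 93.8% in Cre tail and 84.1% in Cre back. Among laminins Lamb2 led with 45.7%, 53.3% and 54.3%. Cadherins were shared by Cdh3, Cdh13 and Cdh1, with 40.4%, 33.1% and 19.5% in control, 65.9%, 8.85% and 20.6% in Cre tail, and 66.6%, 1.91% and 25.2% in Cre back. These levels use the summed length of all annotated exons, which for Cdh13 is 11233 bases against 4565 in its longest transcript. With the longest transcript as the length Cdh13 was first in control, with 53.4% beside 27.3% for Cdh3 and 13.5% for Cdh1, and it held 18.9% in Cre tail and 4.44% in Cre back. Itga5 held 36.8% of the α level in control, 58.7% in Cre tail and 37.6% in Cre back, where single libraries ran from 0.89% to 63.9%. Itga9 was next in control with 29.1%, and had 8.56% and 4.94% in the Cre groups.

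Differences between groups were tested with limma on the deposited log2-scale values of all genes, with group and library set as terms. The set term is needed because a shift between the third Cre tail and the third back libraries and the other 7 had been taken out of the values before deposit. A gene is called at a Benjamini-Hochberg adjusted p under 0.05 over all 16299 genes. The deposited scale is compressed at low counts, where a gene at 0 has a value of 7.98, so its differences understate the change of a low gene. A fold given below is a ratio of mean normalised counts and is not adjusted for library set. In bulk RNA, fewer cells of a type and less RNA per cell cannot be told apart.

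Of the 31 members, 2 were called, both lower in back: Itgb3 and Cdh13, each against Cre tail and against control. Among all genes 0.436% were called for back against Cre tail (0.294% called lower) and 3.34% for back against control (2.29% called lower). For Cre tail against control no member was called by limma or by limma-voom on the counts, and 0.0614% of all genes were called. There 6 members (19.4%) had an unadjusted p under 0.05, beside 5.7% of all genes, and the shares were 22.6% beside 18.2% for back against Cre tail and 45.2% beside 24.6% for back against control. The back comparisons share their back libraries, and the comparisons with control share the control libraries, so the calls are not independent of each other.

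**Figure D1:**
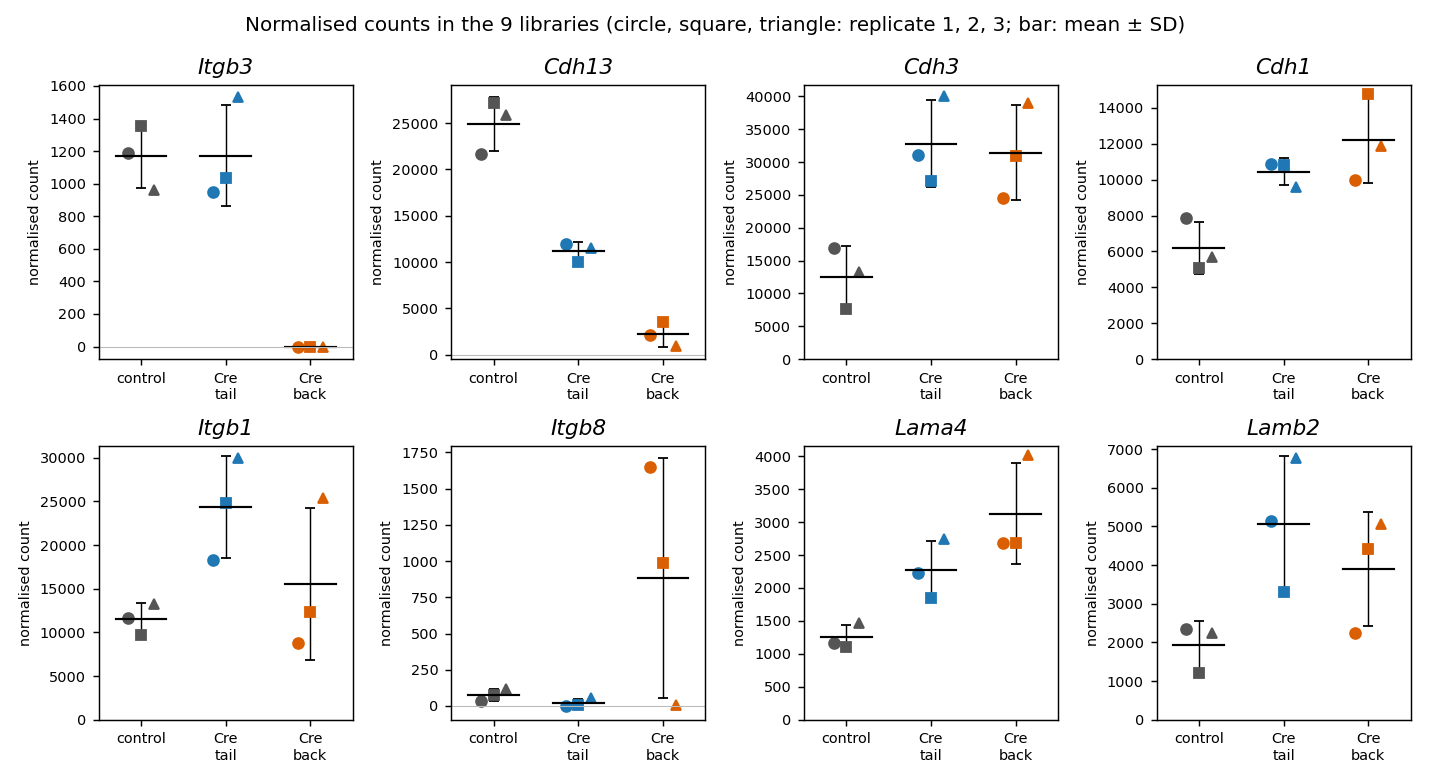
Normalised counts (vertical axes, linear, each with its own range) of 8 genes in control, Cre tail and Cre back, one symbol per library, with the mean and SD of 3 libraries as bars. Itgb3 was at 0 in the 3 back libraries, Cdh13 stepped down over the 3 groups without overlap, and Cdh3, Cdh1 and Lama4 lay above control in both Cre groups.

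Itgb3 encodes the β3 chain, which pairs with αv in the vitronectin receptor and with the platelet α chain αIIb. The gene lies on chromosome 11 from 104608000 to 104670476 on the plus strand (GRCm38, protein coding, ENSMUSG00000020689.4). Itgb3 had normalised counts of 1189, 1356 and 963 in control, 952, 1037 and 1530 in Cre tail, and 0, 0 and 0 in Cre back. The tail groups had means of 1169 ± 198 and 1173 ± 312 (SD, n = 3) and overlapped, and no back library had a single count. A count of 0 allows up to 3 counts in a library, for counting error only, which puts back at least 364-fold lower than Cre tail and at least 362-fold lower than control. On the deposited log2 scale the difference was -2.68 (SE 0.32, limma adjusted p = 0.026) from Cre tail and -2.77 (SE 0.34, adjusted p = 0.014) from control. Between the tail groups it was -0.08 (SE 0.34, adjusted p = 1).

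The third back library, with 1471 genes at 0 in the range of the tail libraries, lacked Itgb3 like the other two. Of 16296 genes with counts, 899 (5.52%) were at 0 in all 3 back libraries, and 44 (0.27%) of these had more than 100 normalised counts in all 6 tail libraries. Among the 5123 genes that reached the lowest tail value of Itgb3 in every tail library, 4 were at 0 in all back libraries: Fam71f1, Itgb3, Prl2c2 and Tmem179. That cutoff was taken from the values of Itgb3, so Itgb3 is among the 4 by construction and the count is description only. Haemoglobin genes, which mark blood, summed to 373 to 5451 in control, 1398 to 64116 in Cre tail and 4250 to 16529 in back, and platelet markers were not analysed here. The call against Cre tail was lost without any 1 of the control libraries (limma adjusted p = 0.076 to 0.084), without the first or second Cre tail library (0.17 and 0.16) and without the first and second back libraries together (0.17). Against control it was lost without any 1 control library (0.064 to 0.077) and without the first and second back libraries together (0.14), while the difference stayed between -3.15 and -2.68.

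Cdh13 encodes T-cadherin, a cadherin held by a lipid anchor with no tail inside the cell. It lies on chromosome 8 from 118283733 to 119324921 on the plus strand (ENSMUSG00000031841.19). Cdh13 had normalised counts of 21661, 27162 and 25894 in control, 11935, 10032 and 11476 in Cre tail, and 2162, 3505 and 887 in Cre back. The 3 groups did not overlap in any pair: Cre tail had 2.23-fold less than control, and back had 5.1-fold less than Cre tail and 11.4-fold less than control. Its share of the cadherin level per kilobase of summed exons ran from 24.3% to 43% in control, from 7.89% to 9.71% in Cre tail and from 0.627% to 2.95% in back.

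On the deposited log2 scale Cdh13 differed by -3.18 (SE 0.34, limma adjusted p = 0.0091) between back and control and by -2.26 (SE 0.32, adjusted p = 0.043) between back and Cre tail. The step between the tail groups, -0.92 (SE 0.34), was not called (limma adjusted p = 0.74). Against Cre tail the limma call was lost without any 1 control library (0.096 to 0.12), the first or second Cre tail library (0.18 and 0.16) or the first back library (0.088), and without the first and second back libraries together (0.064, with a difference of -3.16). Against control it was lost without the second or the third control library (0.063 and 0.056), and it passed without the first and second back libraries (-4.3, adjusted p = 0.041).

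The 2 cadherins that bind melanocytes to keratinocytes had higher counts in both Cre groups, without a call. Cdh3 and Cdh1 are close neighbours on chromosome 8, at 106510891 to 106557297 and 106603351 to 106670246, both on the plus strand. Cdh3, P-cadherin, had normalised counts of 16891, 7610 and 13198 in control, 31132, 27162 and 40129 in Cre tail, and 24502, 30895 and 38986 in back. Every Cre library was above every control, with means 2.61-fold (Cre tail) and 2.5-fold (back) that of control. Its limma differences were 1.24 (SE 0.29, adjusted p = 0.32) and 1.18 (SE 0.29, adjusted p = 0.065), and -0.07 (SE 0.27) between back and Cre tail.

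Cdh1, E-cadherin, had normalised counts of 7848, 5054 and 5680 in control, 10895, 10844 and 9579 in Cre tail, and 10000, 14781 and 11861 in back. Here too no Cre library overlapped the controls, and the mean was 1.69-fold and 1.97-fold that of control. The limma differences were 0.76 (SE 0.24, adjusted p = 0.57) and 0.97 (SE 0.24, adjusted p = 0.067). Keratinocytes also express both genes. Basal keratinocyte markers summed to 37210 to 98947 in control and to 34820, 11042 and 322416 in the 3 Cre tail libraries. The last of these had the lowest Cdh1 and the highest Cdh3 of its group. In control the second library had the most of these marker counts and the lowest Cdh1 and Cdh3. Among back libraries the third had the most marker counts (188801), the highest Cdh3 (38986) and the middle Cdh1 value (11861). The part of keratinocytes in these values was not tested.

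The remaining 5 cadherins were low or uneven. Cdh2, N-cadherin, had 1073, 1283 and 1198 normalised counts in control, 1004, 1125 and 2215 in Cre tail, and 2957, 0 and 586 in back. The back libraries lay on both sides of all tail libraries, and the limma difference from Cre tail (-0.94, SE 0.85) was not called. Cdh15, M-cadherin of the muscle lineage, had 486, 327 and 791 in control, 0, 499 and 0 in Cre tail, and 0 in all back libraries. Back was at least 166-fold lower than control by counts, and the limma difference of -1.75 (SE 0.5) was not called (adjusted p = 0.089), though it was without the second Cre tail library (-1.91, adjusted p = 0.031). Acta1, Acta2 and Myh11, genes of muscle and pericytes, summed to 119 to 468 in control, 49 to 320 in Cre tail and 15 to 1195 in back, and their part was not tested. Cdh19, a cadherin of neural crest and Schwann cells, ran from 333 to 865 in control and 1006 to 1700 in Cre tail and was at 1578, 0 and 4017 in back. Cdh4, R-cadherin, was at 165 to 401 in control and 0 to 37 in Cre tail, and reached 1597 in the first back library with 0 in the others. Cdh11 never exceeded 58.

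**Figure D2:**
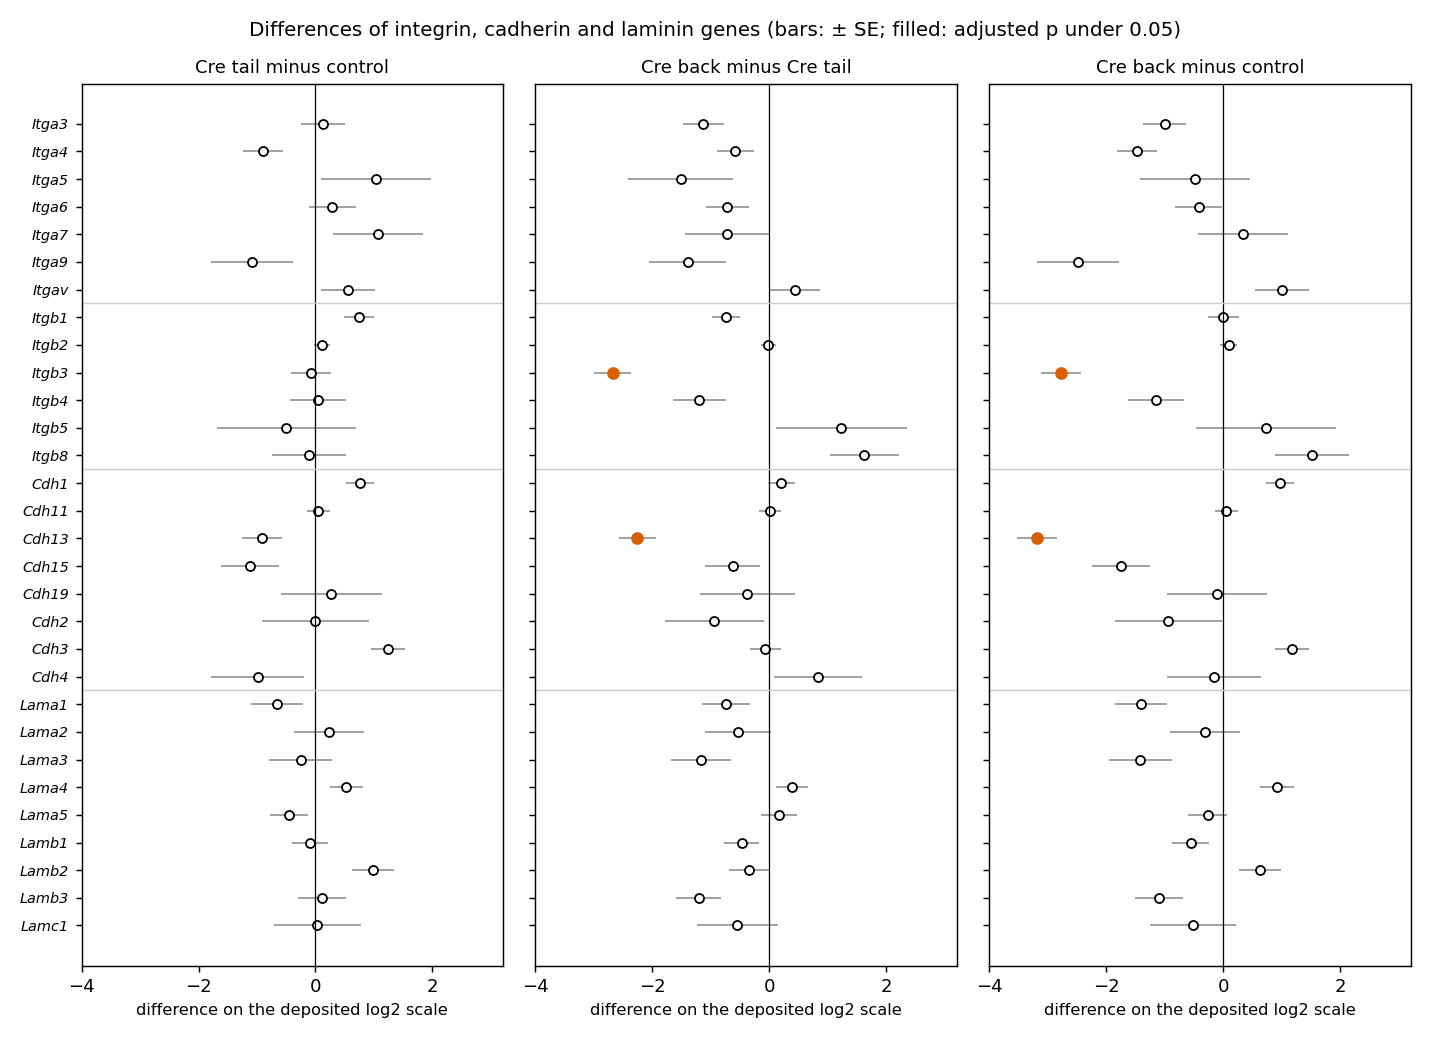
Differences of the integrin, cadherin and laminin genes reported here on the deposited log2 scale (horizontal axes, circles with SE bars), by class from integrin α at the top to laminins, for Cre tail minus control, Cre back minus Cre tail and Cre back minus control. Filled circles are called: Itgb3 (-2.68 and -2.77) and Cdh13 (-2.26 and -3.18) in the back comparisons, and none between the tail groups.

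Among β chains Itgb1, the common partner of most α chains, was highest in every library. Itgb1 had normalised counts of 11667, 9682 and 13293 in control, 18240, 24831 and 29953 in Cre tail, and 8839, 12348 and 25447 in back. Cre tail lay above control without overlap, at 2.11-fold the mean, but was not called (limma, 0.74, SE 0.26, adjusted p = 0.66). Back overlapped both tail groups, and its limma difference from Cre tail was -0.74 (SE 0.24, adjusted p = 0.17). The third libraries of both Cre groups, which had the most basal keratinocyte marker counts, were also the highest in Itgb1. In control the second library had the most of these counts (98947) and the lowest Itgb1.

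Itgb4 pairs with α6 in hemidesmosomes, the junctions that fix basal keratinocytes to the basement membrane. Itgb4 had normalised counts of 549, 311 and 525 in control, 837, 355 and 1541 in Cre tail, and 143, 0 and 815 in back. The groups overlapped, and its difference between back and Cre tail was -1.2 (SE 0.45, limma adjusted p = 0.22). Within each Cre group the library with the most basal keratinocyte marker counts was highest in Itgb4. This did not hold in control, where the second library had the most of these counts (98947) and the lowest Itgb4. Itgb2, the β chain of leukocytes, was at most 41 in any library.

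The αv chain can pair with β1, β3, β5, β6 or β8, and Itgav, Itgb1, Itgb3, Itgb5 and Itgb8 were measured here. Itgav had normalised counts of 834, 358 and 1422 in control, 1447, 1315 and 675 in Cre tail, and 2356, 1621 and 1158 in back. It was present in all libraries, and back was not called against Cre tail (0.44, SE 0.43) or control (1, SE 0.46, limma adjusted p = 0.23). Itgb5 had 707, 522 and 21 in control, 383, 4 and 117 in Cre tail, and 0, 5788 and 501 in back. Itgb8, whose αv pair binds latent TGF-β, had 35, 74 and 117 in control, 0, 7 and 55 in Cre tail, and 1651, 989 and 4 in back. It is described because of the αv pairing, outside the rule for named genes, and its values were known when it was chosen.

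The back libraries differed in the partner transcripts found beside Itgav. Of the level per kilobase summed over Itgb3, Itgb5 and Itgb8, Itgb3 made up 49.9% to 90.8% in control, 60% to 99% in Cre tail and 0% in back. Itgb8 made up 100% in the first back library, and Itgb5 made up 94.8% and 99.7% in the second and in the third. In the tail libraries Itgb8 was at most 5.87%. Itgb1, which can also pair with αv, is outside these shares. Its level per kilobase was 2166, 3026 and 6235 in the back libraries, above those of Itgb3, Itgb5 and Itgb8 in each. Neither Itgb5 (1.23, SE 1.12) nor Itgb8 (1.62, SE 0.59, limma adjusted p = 0.2) was called between back and Cre tail. Without the third Cre tail library, or without the third back library, limma called Itgb8 higher in back than in Cre tail (2.68, adjusted p = 0.014 and 0.015).

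**Figure D3:**
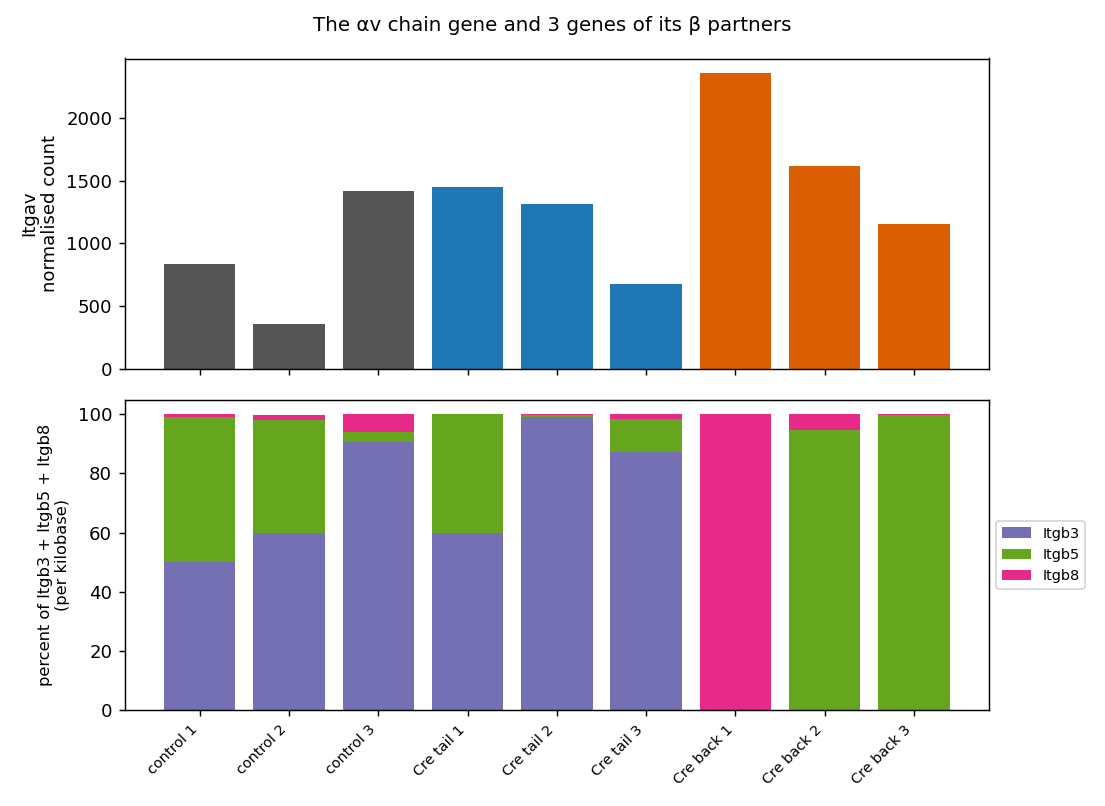
Upper panel: normalised count of Itgav in each of the 9 libraries. Lower panel: percent of the level per kilobase summed over Itgb3, Itgb5 and Itgb8 that each gene held, from 0 to 100; Itgb3 held 49.9% or more in the 6 tail libraries and none in the 3 back libraries.

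Of the 7 α chain genes none was called by limma in any comparison, and 1, 1 and 3 (14.3%, 14.3% and 42.9%) had an unadjusted p under 0.05 in the same order as below, beside 5.7%, 18.2% and 24.6% of all genes. Their median difference was 0.29 for Cre tail minus control, -0.73 for back minus Cre tail and -0.49 for back minus control. Itga5, which with β1 forms the classical fibronectin receptor, had normalised counts of 1536, 1153 and 1422 in control, 4004, 2918 and 5014 in Cre tail, and 4557, 9 and 1838 in back. All Cre tail libraries were above the controls (2.9-fold by means), and the back libraries spanned both tail groups, with 1 near 0. Its limma difference between the tail groups was 1.03 (SE 0.94, adjusted p = 1).

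Itga9, whose pair with β1 binds tenascin and other matrix proteins, had 2801, 1062 and 1483 in control, 723, 1297 and 420 in Cre tail, and 0, 5 and 870 in back. Back lay below control without overlap, with a limma difference of -2.48 (SE 0.7, adjusted p = 0.088). It passed without the third Cre tail library and without the third back library (-2.99, limma adjusted p = 0.013 for each). Both are in effect the same fit, resting on the first and second back libraries, which had 4628 and 6127 genes at 0. Of 16299 genes, 2369 and 2385 were called in these settings. Itga4, whose pair with β1 binds VCAM1 and fibronectin, had 335, 122 and 448 in control, 143, 0 and 58 in Cre tail and 0 in the 3 back libraries. That was at least 93.5-fold lower in back than in control by counts, and -1.48 on the deposited scale (SE 0.34, limma adjusted p = 0.057).

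The 2 α chains that receive laminin signals in epidermis are α3 and α6. Itga6 had 696, 986 and 1298 normalised counts in control, 1089, 1321 and 1978 in Cre tail, and 840, 532 and 765 in back. It was detected in every library, and back was below Cre tail without overlap (2.05-fold by means) but not called (-0.72, SE 0.37, limma adjusted p = 0.35). Itga3 had 312, 81 and 142 in control, 293, 156 and 1529 in Cre tail, and 0, 5 and 567 in back. The third library was the highest in each Cre group, and the difference between back and Cre tail was -1.13 (SE 0.35, limma adjusted p = 0.16). Itga7, known as a laminin receptor chain of muscle, was at 91 to 193 in control, 205 to 905 in Cre tail and 0 to 1699 in back.

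No laminin gene was called by limma in any comparison, and 1, 1 and 4 of the 10 had an unadjusted p under 0.05 for Cre tail against control, back against Cre tail and back against control, where 5.7%, 18.2% and 24.6% of all genes did. The chains Lama4, Lamb2 and Lamc1, which can assemble into one trimer, made up 53.1% to 99.9% of the laminin level per kilobase in the 9 libraries. Lama4 had normalised counts of 1171, 1111 and 1471 in control, 2223, 1842 and 2738 in Cre tail, and 2679, 2684 and 4012 in back. Every Cre library was above every control, at 1.81-fold and 2.5-fold by means, with limma differences of 0.53 (SE 0.29, adjusted p = 1) and 0.91 (SE 0.29, adjusted p = 0.11).

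Lamb2 had normalised counts of 2345, 1221 and 2255 in control, 5145, 3293 and 6767 in Cre tail, and 2244, 4410 and 5051 in back. Cre tail did not overlap control (2.61-fold by means), whereas the first back library lay among the controls, and the limma difference between the tail groups was 0.98 (SE 0.36, adjusted p = 0.74). Lamc1 had 1165, 670 and 909 in control, 1105, 1335 and 638 in Cre tail, and 15, 1389 and 1171 in back, and did not share the higher Cre tail level of its partner chains. Summed per kilobase, the 3 genes ran from 374 to 623 in control, 855 to 1417 in Cre tail and 593 to 1305 in back.

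Lama3 and Lamb3 encode chains of the laminin that basal keratinocytes lay down under the epidermis. Lama3 had normalised counts of 388, 595 and 649 in control, 651, 591 and 921 in Cre tail, and 0, 12 and 1272 in back. Lamb3 had 103, 137 and 409 in control, 295, 198 and 4303 in Cre tail, and 4, 0 and 1793 in back. In each Cre group both genes were highest in the third library, and the back libraries other than the third were near 0.

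The sum of these chains per kilobase was 737 in the third Cre tail library and 390 in the third back library, or 27.6% and 18.9% of the laminin level, against 51.6 to 122 in control, 105 and 84.9 in the other Cre tail libraries and 0.651 and 1.09 in the other back libraries. The third libraries of both Cre groups had 9882 and 4466 normalised counts of Col17a1, a hemidesmosome collagen of basal keratinocytes, against 240 to 1891 in the other 7, and 48854 and 31871 of Krt5 against 1252 to 10783. In the first back library the 5 basal keratinocyte markers summed to 118863, against 37210 to 98947 in control. Krt14, at 65571, was below its value in the second control library (68146). Lama3 and Lamb3 were at 0 and 4 in this back library, which had 4628 genes at 0. The part of keratinocyte RNA in the laminin values was not tested. Between back and Cre tail the limma differences were -1.17 (SE 0.51, adjusted p = 0.28) for Lama3 and -1.21 (SE 0.39, adjusted p = 0.17) for Lamb3. Lama3 was called lower in back than in Cre tail without the third Cre tail library or without the third back library (-1.92, limma adjusted p = 0.028 for each). These are in effect the same fit, and 1642 and 1638 of 16299 genes were called in them.

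**Figure D4:**
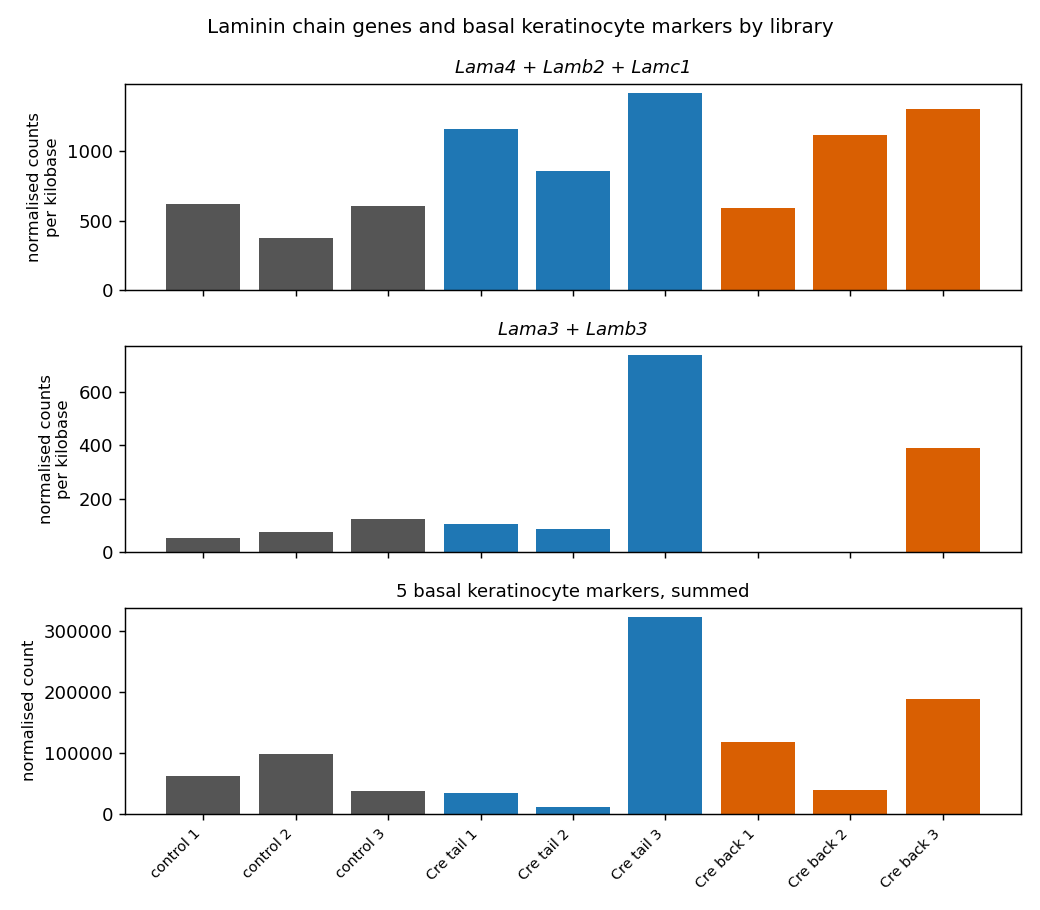
Summed level of Lama4, Lamb2 and Lamc1 (top) and of Lama3 and Lamb3 (middle) in normalised counts per kilobase, and summed normalised counts of 5 basal keratinocyte markers (bottom), in the 9 libraries, on linear axes from 0. The middle and bottom panels are both highest in the third Cre tail library (737 and 322416) and next in the third back library (390 and 188801).

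The other laminin genes were low. Lama5, the α chain of most adult basement membranes, had 132, 0 and 3 normalised counts in control, 0, 0 and 238 in Cre tail, and 2, 0 and 415 in back, again highest in the third Cre libraries. Lama2 ran from 257 to 362 in control, 284 to 583 in Cre tail and 0 to 780 in back. Lama1 was at 120 to 568, 79 to 219 and 0 to 132, and its difference between back and control was -1.41 (SE 0.44, limma adjusted p = 0.1). It was called without the third Cre tail library and without the third back library (-1.65, limma adjusted p = 0.035 for each). These are in effect the same fit, and 2369 and 2385 of 16299 genes were called in them. Lamb1 was at 0 to 35 in control and 0 in all back libraries, and reached 259 in the third Cre tail library.

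Between the families, cadherins and integrins each gave 1 of the called genes and laminins gave none. The median difference for Cre tail minus control was 0.11 for integrins, 0.02 for cadherins and 0.07 for laminins, beside -0.07 for all genes. For back minus Cre tail it was -0.73, -0.22 and -0.52, beside -0.18 for all genes, and for back minus control -0.42, -0.14 and -0.44, beside -0.26. Differences were above 0 for 19 of the 31 members (61.3%) between the tail groups, 8 (25.8%) between back and Cre tail and 11 (35.5%) between back and control, where all genes gave 42.5%, 36.7% and 33.9%. No test was made between the families, which share libraries and hold few genes.

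By counts alone, Cre tail was above control in all libraries for 8 members (Cdh1, Cdh3, Cdh19, Itga5, Itga7, Itgb1, Lama4 and Lamb2) and below it for 2 (Cdh13 and Cdh4). Among all genes 9.7% lay above and 9.31% below in this way. Back lay below Cre tail for 3 members (Itgb3, Cdh13 and Itga6) and above for none, against 10.4% and 4.55% of all genes. Back lay below control for 5 (Cdh13, Itgb3, Itga9, Itga4 and Cdh15) and above for 3 (Cdh1, Cdh3 and Lama4), against 15.6% and 7.41% of all genes. As shares of the 31 members, 25.8% lay above control in Cre tail, against the 9.7% of all genes. Those below Cre tail and below control in back were 9.68% and 16.1%, close to the 10.4% and 15.6% of all genes.

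Genes that work with these receptors were followed as a list of 57, of which 51 were analysed: 18 integrin activators and adaptors, 9 cadherin partners, 8 hemidesmosome and tetraspanin partners, 13 basement membrane and matrix ligands and 3 cadherin repressors. None was called by limma for Cre tail against control or for back against Cre tail, where 7 (13.7%) and 12 (23.5%) had an unadjusted p under 0.05, beside 5.7% and 18.2% of all genes. For back against control 3 were called, all higher, beside 1.05% of all genes called higher. Their median differences were -0.02, -0.09 and 0, beside those of all genes given above.

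Agrn, which encodes the basement membrane proteoglycan agrin, had 1096, 58 and 103 normalised counts in control, 387, 746 and 969 in Cre tail, and 10659, 10040 and 4101 in back. All back libraries were far above the tail libraries, and the difference from control was 3.72 (SE 0.66, limma adjusted p = 0.037) and from Cre tail 2.87 (SE 0.62, adjusted p = 0.089). Ctnnb1, β-catenin, which binds the tails of classical cadherins, had 31482, 23360 and 23851 in control, 38233, 32883 and 60853 in Cre tail, and 49774, 44003 and 83895 in back. It differed by 0.85 (SE 0.17, limma adjusted p = 0.044) from control.

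Npnt, nephronectin, a matrix ligand of integrin α8β1, had 2852, 1517 and 1630 normalised counts in control, 4063, 4001 and 2855 in Cre tail, and 5040, 8227 and 6361 in back (1.6, SE 0.33, limma adjusted p = 0.048 against control). All 3 genes missed the threshold with group as the only term (0.053, 0.055 and 0.056) and without any 1 of the control libraries, the first or second Cre tail library, or the first or second back library, when 0 of the list were called. Without the third Cre tail or the third back library 9 of the 51 were called, and 4 for back against Cre tail. In these settings 2369 and 2385 of 16299 genes were called against control, and 1642 and 1638 against Cre tail. Src, a kinase at integrin contacts, was next for back against Cre tail, at 2413, 2682 and 1494 in Cre tail and 48, 0 and 1194 in back (-2.26, SE 0.62, limma adjusted p = 0.13). Between the tail groups the smallest p-values were those of Col7a1 (-0.91, SE 0.26, limma adjusted p = 0.47), the collagen of anchoring fibrils, and Cd81 (-0.61, SE 0.19, adjusted p = 0.56), a tetraspanin that associates with integrins.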

How the data were processed

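RNA of melanocytes sorted from mouse tail and back epidermis was sequenced in 9 libraries made with a SMART-Seq v4 kit, per the labels' protocols. The authors deposited 1 table with a log2-scale value for each of 16299 genes in each library, running from 5.85 to 20.9. DESeq2 and GRCm38 are named in the submitters' processing notes, while the aligner, the counter and strandedness were not given in the sources used here. Deposited values follow a variance-stabilising curve. Averages of the third Cre tail and the third Cre back libraries equal those of the other 7 within 7.14e-09 for all genes, against 1.5 for the next best of 255 ways to part the libraries. The deposited values thus lack a set shift, of median absolute size 0.45, that had been subtracted without regard to group, and the smaller set holds no control.

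Undoing curve and shift gave whole counts for 16296 genes, within a tolerance of 0.004 (for very large counts, a small share of the count). Dct, Pmel and Tyrp1 were not resolved and are left out of totals. On simulated data 4000 of 4000 genes were recovered exactly. Intervals and floors from counts cover counting error only. Lengths, positions and identifiers are from GENCODE vM21 on GRCm38, in which all 31 members were matched by symbol, with positions counted from 1.

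Tests used limma 3.58.1 in R 4.3.3 with trend and robust moderation on all 9 libraries, with group and set as terms, Benjamini-Hochberg adjustment and a threshold of 0.05. In 5 simulated draws over 16296 genes this fit recovered 39.7% of genes changed by 2 (log2) and 0.4% of those changed by 1 between back and Cre tail, and 36.2% and 0.7% between the tail groups. False calls were 3.87% and 4.23% of calls at a change of 2. At a change of 1 they were 0% of 4 calls and 22.2% of 9 calls. Each gene was drawn with the same normal spread in all libraries. The draws thus lack the many genes at 0 of the first and second back libraries, and cannot give the share of false calls under them. Values in every library are given for called members, the 4 highest of each class, 12 adhesion genes chosen by name, the 3 smallest p-values per comparison and members at 0 in one group and above 100 in another, 22 in all, of which 1 is not reported here by name. Members, gene lists, tests and alternatives were chosen with earlier results of these data known.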

Additional observations from a re-analysis of the deposited data

How the results depend on the processing

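No member was called between the tail groups in any of the settings run, and in the comparisons where Itgb3 and Cdh13 were called neither difference changed sign. Both Itgb3 and Cdh13 remained called in back against control with group as the only term, with the shift put back, by limma-voom, on log2 counts with either pseudocount, with a low-count filter, after quantile normalisation, without trend and robust moderation and with array weights.

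For back against Cre tail the 2 called members became 1 with the shift put back, 1 by limma-voom, 1 with a pseudocount of 16, 0 with array weights, 0 without the first and second back libraries, 5 in the 7 libraries of the larger set and 0 to 5 with 1 library left out. Against control they became 1 without the first and second back libraries, 6 in the larger set and 0 to 6 with 1 library left out. Counts of 5 and 6 came from leaving out the third library of a Cre group, when the set term takes up the other one, and the added calls were Itga9, Itgb8, Lama3 and, against control, Lama1. Without the second Cre tail library 3 members were called in back against control, the added one being Cdh15 (-1.91, limma adjusted p = 0.031).

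Adhesion partners called numbered 4 in the larger set for back against Cre tail (0 to 4 with 1 library left out). Against control, 3 became 0 with group only, 1 with the shift put back, 1 with a pseudocount of 16, 0 with array weights, 0 without the first and second back libraries, 9 in the larger set and 0 to 9 with 1 library left out.

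Among all genes the 10 calls between the tail groups became 0 with group only, by limma-voom, with either pseudocount, without trend and robust moderation, without the first and second back libraries and in the larger set, 6 with the shift put back, 130 with array weights and 0 to 8 with 1 library left out. The 71 for back against Cre tail became 244 with group only, 31 with the shift put back, 202 by limma-voom, 189 with a pseudocount of 1, 133 without trend and robust moderation, 6 with array weights, 1 without the first and second back libraries, 1637 in the larger set and 2 to 1642 with 1 library left out. The 545 against control became 163 with group only, 217 with the shift put back, 37 with array weights, 8 without the first and second back libraries, 2371 in the larger set and 26 to 2385 with 1 library left out. The cause of these moves was not tested.

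Replicate numbers share no stated source. Correlations between the deviations of same-numbered libraries ran from -0.13 to 0.33 with the set shift put back, the highest being that of the third Cre tail and the third Cre back libraries, which form the smaller set. On the deposited values, with group and set taken out, they ran from -0.23 to 0.08, apart from those same libraries, which the set term makes mirror images (-1). Not every pair passed 0.1, so the numbers were not taken as pairs. With a replicate block the calls were 0 between the tail groups, 3 for back against Cre tail and 5 against control over all genes, and 0 members and 0 partners in each comparison.

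With the longest annotated transcript as the length, Itga5 held 30.9% of the α chain level in control, against 36.8%, and Cdh3 held 27.3% of the cadherin level, against 40.4%.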
